A study of Mus musculus with 2 samples.

Results

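The collagen genes of the mouse were examined here in maps of open chromatin from the aged cerebral cortex. They were taken by symbol, as autosomal protein-coding genes of the GENCODE M21 annotation named Col, a number, the letter a and a number, such as Col1a1. The rule found 42 genes of 20807 autosomal protein-coding genes, and it used no measured value. X-linked collagen genes were not analysed here. By the structures that their proteins form, 11 are fibrillar, 6 belong to basement membranes and 6 form microfibrils. A further 8 are fibril-associated, 4 form networks or anchoring fibrils and 2 are grouped as other. The remaining 5, grouped here as neuronal, are the membrane collagens and Col19a1. That name does not mean that neurons make each of them.

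Collagens are secreted or membrane-bound proteins whose chains wind into a rope-like helix. Fibrillar collagens give bone, skin and tendon their strength, whereas type IV collagen forms the sheet under the endothelium of every blood vessel. The brain holds little fibrillar collagen outside its meninges and large vessels, and its collagen lies mostly in the basement membranes of vessels and of the pial surface. Some membrane collagens and Col19a1 are made by neurons and are known for roles at synapses and axons.

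DNase-seq cuts nuclei with the enzyme DNase I, and a peak is a stretch where cuts gather because the DNA is accessible. The tissue was the right cerebral cortex of female B6CASTF1/J mice aged 18 to 20 months, a first-generation cross between the strains C57BL/6J and CAST/EiJ. There were 2 biological replicates of 1 group, with no treatment and no second condition, so no test between conditions was possible. The replicates are separate biosamples that share a donor identifier, nothing in the labels says that they came from separate animals, and their spread may be partly technical.

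Replicate 1 had 86601 peaks and replicate 2 had 88482 in the main peak list of each, the shorter of the lists deposited per library. The value of a peak is the deposited signal. All values were whole multiples of a step of 0.00497 in replicate 1 and 0.00892 in replicate 2, which gives 201 M reads in replicate 1 and 112 M in replicate 2 (M for mega) on the reading that each step stands for a single read, normalised per M reads. That depth is inferred and not stated in the files. The tissue is a mixture of cell types, and fewer cells of a type cannot be told apart from lower accessibility per cell. The promoter windows of a gene reach 500 bp to each side of all its annotated starts, and its promoter is called open where a peak of each replicate overlaps them. Over all genes with an open promoter, values were lower in replicate 1, by a median log2 difference (replicate 1 minus replicate 2) of -0.50 with an SD over genes of 0.35. Peaks were merged over the replicates where they overlapped by at least 1 bp, and a merged region with a peak of each is called shared. A distal region is a shared region more than 500 bp from every start site, and it was given to the closest start site of a protein-coding gene if that lay within 100 kb.

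The sequences below carry the accessible sites on which the account of the fibrillar, basement membrane and neuronal collagens turns. Each is read 5′ to 3′ on the strand of its gene from the C57BL/6J reference, GRCm38.p6 (the assembly of mm10), and was not read from the hybrid mice. Capitals mark bases inside a DNase footprint, a short stretch protected from cutting within a peak, of both replicates. The Col4a1 intron region is chr8:11273521-11273820 and was the strongest distal region of any collagen gene by mean value. The Col18a1 intron region is chr10:77130641-77130880. The Col27a1 intron region is chr4:63291141-63291380. The Col1a1 peak is chr11:94937081-94937300, inside the gene, the strongest promoter peak of replicate 2. The Col23a1 intron region is chr11:51539721-51539940. The Col25a1 peak is chr3:130180621-130180860, just before the start of an internal transcript.

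Col4a1 intron: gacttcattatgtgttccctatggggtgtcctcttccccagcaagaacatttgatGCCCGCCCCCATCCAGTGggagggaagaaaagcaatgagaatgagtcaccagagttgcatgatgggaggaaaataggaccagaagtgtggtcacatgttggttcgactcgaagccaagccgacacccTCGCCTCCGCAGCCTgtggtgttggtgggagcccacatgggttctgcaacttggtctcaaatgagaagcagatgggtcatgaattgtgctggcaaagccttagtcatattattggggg
Col18a1 intron: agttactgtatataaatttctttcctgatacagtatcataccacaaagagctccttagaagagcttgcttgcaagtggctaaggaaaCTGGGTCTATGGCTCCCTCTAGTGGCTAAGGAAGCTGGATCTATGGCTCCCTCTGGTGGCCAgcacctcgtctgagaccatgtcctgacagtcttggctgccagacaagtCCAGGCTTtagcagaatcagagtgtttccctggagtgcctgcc
Col27a1 intron: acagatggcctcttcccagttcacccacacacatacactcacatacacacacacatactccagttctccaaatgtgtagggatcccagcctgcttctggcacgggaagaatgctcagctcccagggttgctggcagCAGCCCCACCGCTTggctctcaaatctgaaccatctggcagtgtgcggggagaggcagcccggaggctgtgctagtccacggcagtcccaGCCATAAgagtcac
Col1a1 promoter: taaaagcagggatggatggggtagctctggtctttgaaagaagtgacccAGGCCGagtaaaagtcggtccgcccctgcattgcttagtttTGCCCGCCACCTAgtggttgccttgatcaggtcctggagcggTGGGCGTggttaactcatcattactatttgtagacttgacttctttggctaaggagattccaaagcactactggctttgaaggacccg
Col23a1 intron: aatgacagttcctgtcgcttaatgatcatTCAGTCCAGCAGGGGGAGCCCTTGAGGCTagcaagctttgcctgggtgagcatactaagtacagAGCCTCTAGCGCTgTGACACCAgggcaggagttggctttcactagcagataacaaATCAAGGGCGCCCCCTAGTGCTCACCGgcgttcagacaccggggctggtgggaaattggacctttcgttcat
Col25a1 promoter: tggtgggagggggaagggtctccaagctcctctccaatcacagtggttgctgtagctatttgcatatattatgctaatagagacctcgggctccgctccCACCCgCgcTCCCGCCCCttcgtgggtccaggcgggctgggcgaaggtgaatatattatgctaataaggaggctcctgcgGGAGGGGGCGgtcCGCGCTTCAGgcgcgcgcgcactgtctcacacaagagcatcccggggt

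The Col4a1 intron held the GC box GGGCGG on the reverse strand inside its first footprint, at bases 58 to 63. TGACTCA, the AP-1 string, lay at bases 97 to 103, also on the reverse strand and outside footprints. The Col25a1 promoter peak held the GC box on the reverse strand at bases 111 to 116, inside a footprint. It held the box again on the printed strand at bases 185 to 190, partly inside a footprint. A stretch of 16 bases in the Col25a1 peak, atatattatgctaata, occurred at base 64 and again at base 150, outside the common footprints. The Col18a1 region held a repeat of 15 bases, tctatggctccctct, whose copies began 34 bases apart and lay in 1 run of footprint bases.

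The string CCANNAGNNGG, the core of the CTCF motif with N for any base, was added to the search after these sequences had been seen. Either strand was counted. The string lay inside footprints of both replicates once each in the Col23a1 region and the strongest Col26a1 distal region and 2 times in the Col18a1 region, and partly inside one in the Col1a1 peak. In the Col27a1 region it lay at bases 89 to 99, outside the common footprints. Among all 163 distal regions of the collagen genes, 30 (18.4%) held it in their central 200 bp, against 16.8% of all 45365 distal regions. The share was thus close to that of all distal regions. Of these 30 regions, at 25 genes, 18 (60.0%) had at least 50% of the string inside a footprint of both replicates, against 71.3% of all distal regions that held it.

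Promoters of the collagen genes were open less often than those of all genes. The promoter was open in 14 of 42 collagen genes (33.3%), against 59.1% of all autosomal protein-coding genes. In replicate 1 a peak was present for 19 collagen genes (60.6% of all genes), and in replicate 2 for 15 (61.6% of all genes). Col5a1, Col5a2, Col24a1, Col12a1 and Col6a4 had one in replicate 1 alone, Col23a1 had one in replicate 2 alone, and 22 had none in either.

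The choice of peak list bore on this count. In the longer deposited list, 24 of 42 collagen promoters (57.1%) were open, against 63.6% of all genes. The 10 genes that this list added were Col2a1, Col5a1, Col5a2, Col5a3, Col24a1, Col4a3, Col4a4, Col15a1, Col23a1 and Col12a1. An interval of cuts with a false discovery rate (FDR) under 0.05 lay in the promoter windows in both replicates for 24 collagen genes, against 64.5% of all genes. It was absent in both replicates for 14 collagen genes (33.3%), against 31.4% of all genes. The collagens thus differed from other genes in the main list more than in the longer list or in the FDR intervals.

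Where a collagen promoter did have a peak, it was weak. The strongest promoter peak of the 14 genes had a median of 0.969 in replicate 1 and 1.61 in replicate 2, against 2.24 in replicate 1 and 3.28 in replicate 2 over all genes with an open promoter. All 14 lay below the median of those genes in each replicate. The highest collagen value was 1.47 in replicate 1, at Col27a1, and 2.49 in replicate 2, at Col1a1. The lowest was 0.403 in replicate 1 and 0.606 in replicate 2, both at Col8a1.

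**Figure D1:**
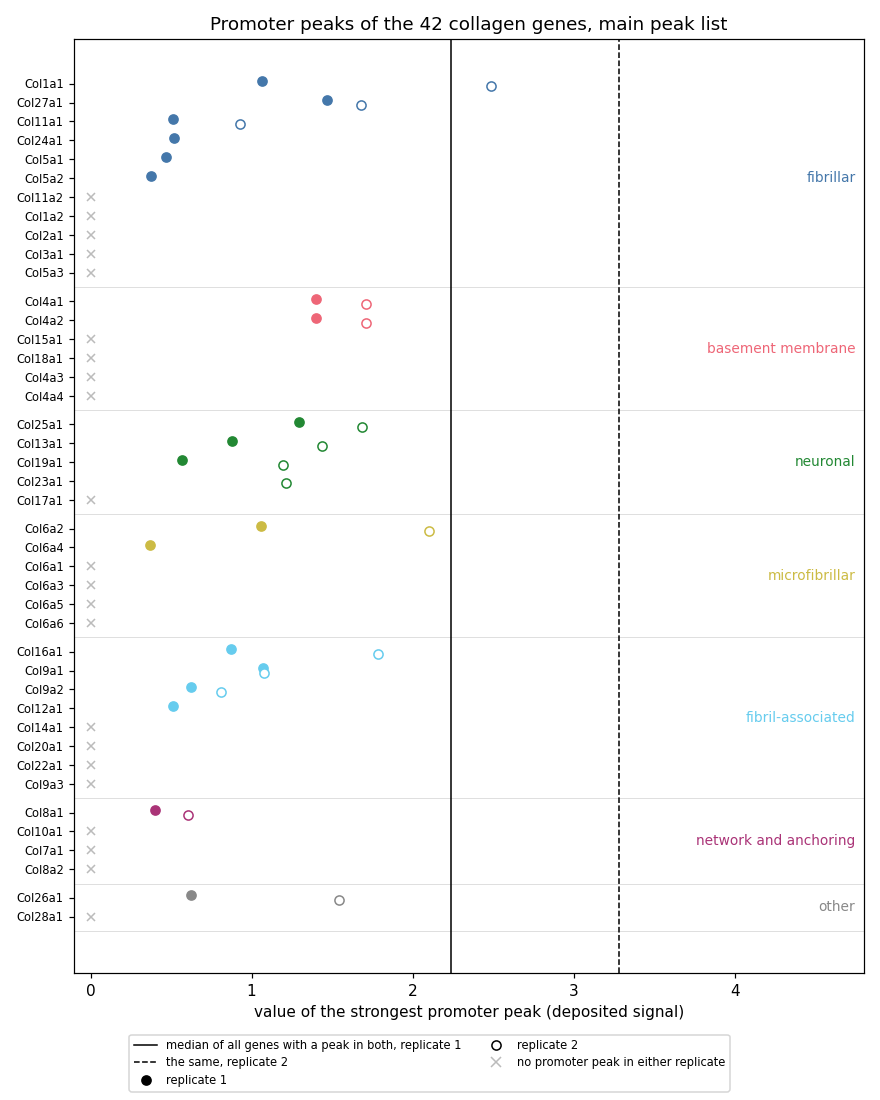
Value of the strongest promoter peak (x axis, deposited signal) of each of the 42 collagen genes, by class, with replicate 1 as filled and replicate 2 as open circles and crosses for the 22 genes without a peak. Vertical lines are the medians of all genes with an open promoter, 2.24 in replicate 1 and 3.28 in replicate 2, and every collagen gene lies to the left of the line of its replicate.

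Many of these peaks were not at the 5′ end of the gene. With windows at the annotated 5′ end alone, a choice made after the data had been seen, 8 collagen genes (19.0%) had an open promoter, against 53.2% of all genes. They were Col11a1, Col4a1, Col4a2, Col19a1, Col6a2, Col16a1, Col8a1 and Col26a1. The other 6 genes, Col1a1, Col27a1, Col13a1, Col25a1, Col9a1 and Col9a2, owed their peak to start sites of internal transcripts.

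Of the fibrillar collagens, 3 of 11 had an open promoter, 8 of 11 in the longer list, and 1 of 11 at the 5′ end alone. The shares of all genes under these settings were 59.1%, 63.6% and 53.2%. Col1a1, which encodes a chain of type I collagen, the main fibre of bone and skin, had 1.06 in replicate 1 and 2.49 in replicate 2. These values came from different peaks near the start of a processed transcript 1.46 kb inside the gene, and no main-list peak lay at its 5′ end in either replicate. Col27a1, a fibrillar collagen of cartilage, had 1.47 in replicate 1 and 1.68 in replicate 2, also from different peaks. In replicate 1 the peak lay at a start site 20.3 kb into the gene, and in replicate 2 at one 1.41 kb into it. The values given for Col1a1 and Col27a1 are therefore not replicated values of a single site. Each gene had 3 promoter peaks in each replicate, and only the strongest is given.

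Col11a1, a minor fibril chain of cartilage, had 0.512 in replicate 1 and 0.927 in replicate 2 at its own 5′ end, in a peak found in both. It was the only fibrillar collagen with such a peak in the main list. Col5a1, whose chain helps set fibril width, had 0.467 in replicate 1 and no main-list peak in replicate 2, and its partner chain Col5a2 had 0.378 in replicate 1 alone. Col24a1, a fibrillar collagen of developing bone, had 0.517 in replicate 1 alone. In the longer list all 3 had a peak in replicate 2 as well, at 0.473 for Col5a1, 0.553 for Col5a2 and 0.606 for Col24a1.

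The remaining fibrillar genes had no promoter peak in the main list. Col2a1, the cartilage fibril gene, had longer-list peaks of 0.298 in replicate 1 and 0.348 in replicate 2, and Col5a3 had 0.417 and 0.428. Col1a2, the partner chain of Col1a1 in type I collagen, had no promoter peak in either list. Nor had Col3a1, the fibril collagen of vessel walls, or Col11a2, a second minor chain of cartilage fibrils.

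Of the 6 basement membrane collagens, 4 had no promoter peak in the main list. Col4a1 and Col4a2 had an open promoter, a share of 33.3% against 59.1% of all genes. These 2 genes encode the chains of the type IV network under vascular endothelium and are transcribed away from each other from 1 shared promoter. Its peak had 1.40 in replicate 1 and 1.71 in replicate 2, and since both genes count the same peak these are not separate measurements. The peak held 7 footprints in replicate 1 and 9 in replicate 2, of which 5 overlapped between them in each. A footprint of both replicates at chr8:11312802-11312819, at the start of Col4a2, is shown with 6 bases on either side because it holds the GC box.

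Col4a2 start: cccctcGGCAGTGCGCGGGCGGCGtctcca

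Col4a3 and Col4a4, the type IV chains of the kidney filter, also share a promoter and had no main-list peak. Their longer-list peak had 0.378 in replicate 1 and 0.366 in replicate 2. Col15a1, a basement membrane collagen of vessels and muscle, had longer-list peaks of 0.328 in replicate 1 and 0.562 in replicate 2. Col18a1, the source of the fragment endostatin, had a longer-list peak in replicate 2 alone, at 0.276. The promoter of Col4a1 and Col4a2 thus had 3.71 times the value of the next promoter of this class, taken from the longer list, in replicate 1 and 3.05 times in replicate 2.

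Of the 5 neuronal collagens, 3 had an open promoter (60.0%, near the 59.1% of all genes) and 1 had a peak in replicate 2 alone. Col25a1, a membrane collagen of neurons whose ectodomain was found in amyloid plaques, had 1.29 in replicate 1 and 1.69 in replicate 2. That peak lay at internal start sites 49.4 kb from the annotated 5′ end, among them one of a protein-coding transcript, and held 5 footprints in replicate 1 and 6 in replicate 2. Col13a1, a membrane collagen of the neuromuscular junction, had 0.880 in replicate 1 and 1.44 in replicate 2. Its peak lay 220 bp in replicate 1 and 240 bp in replicate 2 from a retained-intron start 0.987 kb inside the gene.

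Col19a1, which is made by interneurons and known for a part in synapse formation in mice, had 0.567 in replicate 1 and 1.19 in replicate 2, from different peaks near its 5′ end. Col23a1, another membrane collagen, had 1.21 in replicate 2, and in replicate 1 a peak of 0.422 in the longer list alone. Col17a1, best known from the attachment of skin epithelium, had no promoter peak in either list. At the 5′ end alone 1 of the 5 promoters was open, against 3 with any start site.

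Among the microfibrillar type VI collagens, made by mural cells and fibroblasts in many tissues, 1 of 6 had an open promoter. The share was 16.7%, against 59.1% of all genes. Col6a2 had 1.06 in replicate 1 and 2.10 in replicate 2, in 1 peak near its 5′ end. Col6a4 had 0.368 in replicate 1 alone, at an internal start. Col6a1, which neighbours Col6a2, and Col6a3, Col6a5 and Col6a6 had no promoter peak in either list. A collagen VI fibre needs the chains of Col6a1 and Col6a2 together, and of these neighbours Col6a2 alone had a promoter peak here.

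Of the fibril-associated collagens, which coat fibrils, 3 of 8 had an open promoter (37.5%), against 59.1% of all genes. Col16a1 had 0.870 in replicate 1 and 1.78 in replicate 2 at its 5′ end, within reach of the start of Gm12963 as well. Col9a1, a cartilage collagen, had 1.07 in replicate 1 and 1.08 in replicate 2 at an internal start 51.9 kb into the gene. Col9a2, its partner chain, had 0.621 in replicate 1 and 0.811 in replicate 2 at an internal start 13.6 kb in. Col12a1, a collagen of tendon, had 0.512 in replicate 1 and a longer-list peak of 0.580 in replicate 2. Col9a3 and Col22a1 had a longer-list peak in replicate 2 alone, at 0.553 and 0.259. Col14a1 and Col20a1 had none.

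Of the network and anchoring collagens, Col8a1, a collagen of the cornea and vessel wall, had the weakest promoter of the 14, at 0.403 in replicate 1 and 0.606 in replicate 2. Its peak had no footprint in replicate 1 and 2 in replicate 2. Col8a2, its partner, had no promoter peak in either list, nor had Col10a1, the gene of growth-plate cartilage, or Col7a1, the anchoring fibril of skin. Col26a1 had 0.621 in replicate 1 and 1.54 in replicate 2 at an internal start 128 kb from the 5′ end. A weaker peak of Col26a1 at the 5′ end had 0.378 in replicate 1 and 0.580 in replicate 2. Col28a1, a collagen of peripheral nerve, had none.

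**Figure D2:**
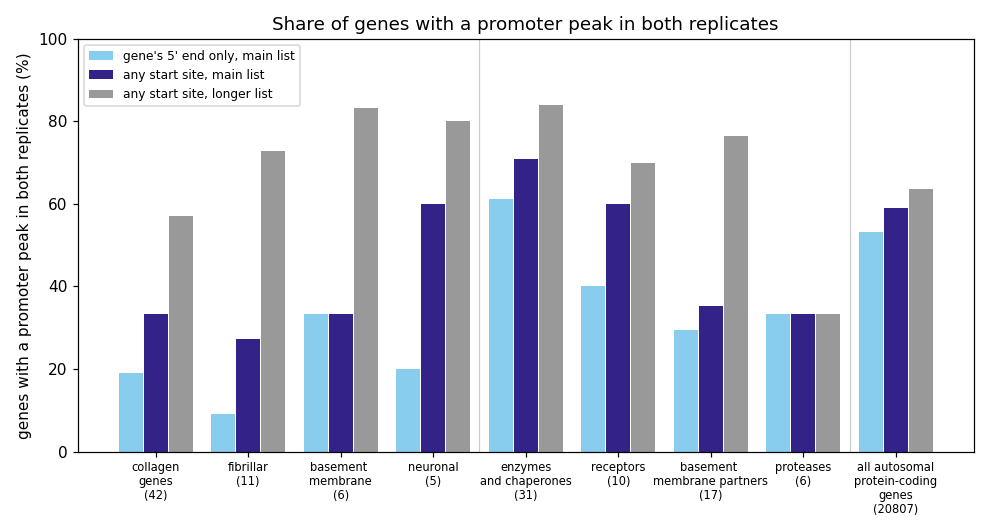
Percentage of genes (y axis) with an open promoter for all collagens, 3 collagen classes, 4 lists of partner genes and all genes, with the number of genes in brackets. Light bars count the gene's 5′ end alone, dark bars any start site, and grey bars any start site in the longer list, and the collagens stand at 19.0%, 33.3% and 57.1% against 53.2%, 59.1% and 63.6% of all genes.

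The replicates differed in level at these promoters. The value was lower in replicate 1 at all 14 genes, with a median log2 difference (replicate 1 minus replicate 2) of -0.65, against -0.50 over all genes with an open promoter. The largest differences were -1.31 at Col26a1, -1.23 at Col1a1 and -1.08 at Col19a1, and at Col1a1 and Col19a1 they compare different peaks. The smallest were -0.01 at Col9a1, -0.19 at Col27a1 and -0.29 at Col4a1 and Col4a2. Less the median of all genes, the differences ran from -0.81 at Col26a1 to 0.49 at Col9a1. With 2 replicates in 1 group these differences have no test.

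Footprints were present in the strongest promoter peak in both replicates for 13 of the 14 genes, against 98.1% of all genes with an open promoter. The exception was Col8a1. At 10 of the 14 genes (71.4%) a footprint of 1 replicate overlapped one of the other, against 92.8% of all genes with an open promoter. The reference promoters, 250 bases before and 50 after the start, were found in the RefSeq table for 33 collagen genes, 36 promoters in all. Those of genes with a shared promoter can overlap, so the 36 may not all be separate sequences. The GC box GGGCGG, counted on both strands, was in 21 of 36 (58.3%), against 36.0% of 31396 promoters of all genes. TATAAA was in 13.9% against 13.6%, CAGCTG in 19.4% against 16.3%, TGACGTCA in 2.78% against 1.83%, and CCAAT in 33.3% against 37.3%. The shares were lower than those of all promoters for the E-box CAGATG (8.33% against 17.2%), ATTGTT, the SOX string (2.78% against 10.6%), TGACTCA (2.78% against 5.26%), the TEAD string GGAATG (11.1% against 14.6%) and the NFI string TTGGC (41.7% against 46.7%). With 36 promoters, 2.78% is 1 promoter. The ratio of observed to expected CpG in the richest promoter window of a gene had a median of 0.608 in collagen genes with an open promoter and 0.406 in those without. Over all genes the medians were 0.771 with an open promoter and 0.242 without.

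Away from promoters, collagen genes had accessible regions more often than most genes. At least 1 distal shared region was given to 37 of 42 collagen genes (88.1%), against 53.9% of all genes. They received 163 regions, with a median of 3 per gene, against 1 over all genes. Collagen genes are long, with a median of 111 kb, against 17.6 kb over all genes. Per 100 kb of the DNA nearest to their start sites, they held 2.58 regions, against 2.36 over all genes. The larger number of regions thus went with more DNA, and the density was close to that of all genes.

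Most of the regions lay inside the genes themselves. Of the 163 regions, 104 were in an intron and 12 in an exon of their own gene, 33 lay upstream and 14 downstream. Counted by gene body alone, 35 of 42 collagen genes (83.3%) held at least 1 region, against 36.0% of all genes. The density was 2.77 regions per 100 kb of collagen gene, against 2.25 over all genes. Footprints of both replicates were in 151 of the 163 distal regions (92.6%), against 89.9% of all distal regions.

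**Figure D3:**
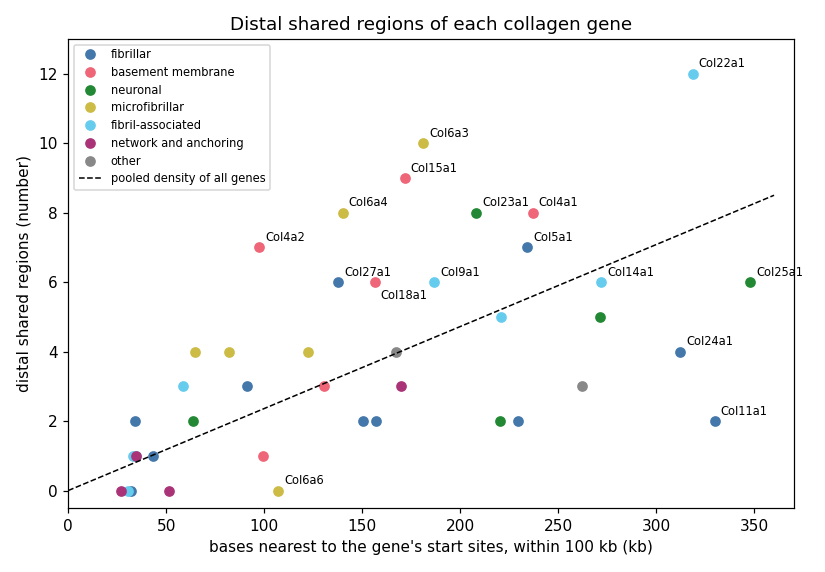
Number of distal shared regions (y axis) against the kb of DNA nearest to the start sites of each collagen gene (x axis), with 1 point per gene coloured by class. The dashed line is the pooled density of all genes, 2.36 per 100 kb, and Col15a1, Col6a3 and Col4a2 lie above it while Col11a1, Col24a1 and Col6a6 lie below.

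The classes differed in density. Basement membrane collagens had 34 regions, or 3.81 per 100 kb, and microfibrillar collagens had 30, or 4.30 per 100 kb. Fibrillar collagens had 31 regions in more DNA, or 1.77 per 100 kb, and neuronal collagens had 23, or 2.07. Fibril-associated collagens had 34, or 2.95 per 100 kb, network and anchoring collagens 4, or 1.41, and the other pair 7, or 1.63. The pooled density of the basement membrane genes was thus above the 2.36 of all genes, and that of the fibrillar genes below it. Within the basement membrane class it was 7.19 in Col4a2, 5.25 in Col15a1, 3.84 in Col18a1 and 3.38 in Col4a1. Col4a3 (2.30) and Col4a4 (1.01) were below 2.36. The fibrillar count depended on the list and the library, with 51 regions (2.91 per 100 kb, against 3.31 over all genes) without replicate 1 and 52 (2.97, against 3.98) in the longer list. The neuronal count was 35 (3.15, against 3.24) without replicate 2 and 44 (3.96, against 3.98) in the longer list.

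The strength of the distal regions followed a like order in the 3 classes compared. The basement membrane regions had a median of 1.07 in replicate 1 and 1.36 in replicate 2, above 0.755 and 1.07 over all distal regions. The neuronal regions had 0.731 in replicate 1 and 1.04 in replicate 2, and the fibrillar regions 0.681 and 0.829. A value above the median of all distal regions in both replicates was found in 20 of 34 basement membrane regions (58.8%), 9 of 23 neuronal regions (39.1%) and 6 of 31 fibrillar regions (19.4%). Over all collagen genes it was 61 of 163 (37.4%), against 39.1% of all distal regions. The ranges overlapped widely, and regions of 1 gene share a locus and are not replicates.

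**Figure D4:**
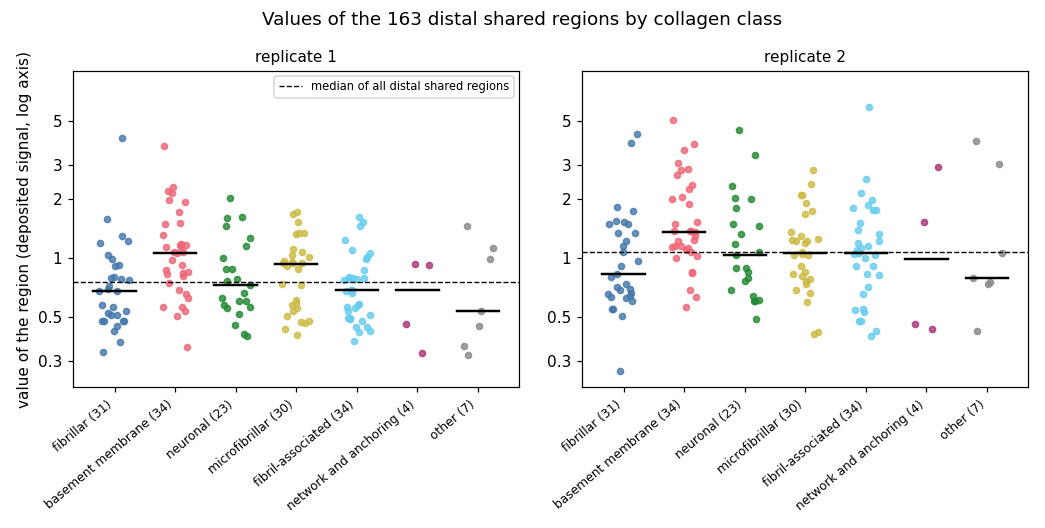
Value of each of the 163 distal shared regions of collagen genes (y axis, deposited signal on a log axis) by class, in replicate 1 (left) and replicate 2 (right), with the number of regions in brackets. Black bars are class medians and the dashed line is the median of all distal shared regions, and the basement membrane median (1.07 and 1.36) lies above the line in each replicate while the fibrillar median (0.681 and 0.829) lies below it.

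Col4a1 had 8 distal regions with values of 0.353 to 3.75 in replicate 1 and 0.633 to 5.06 in replicate 2. The strongest, the intron region printed above, had 3.75 in replicate 1 and 5.06 in replicate 2 and lay 5.84 kb from the nearest start site of the gene. It had 2.67 times the value of the shared promoter peak in replicate 1 and 2.96 times in replicate 2. A second intron region at chr8:11253581-11253780 had 1.07 in replicate 1 and 3.54 in replicate 2 and stood at the 73.2 and 97.3 percentile of all distal regions, so that its rank differed between the replicates. Col4a2 had 7 distal regions, all inside the gene, with 1.06 to 2.20 in replicate 1 and 1.11 to 2.85 in replicate 2. All 7 lay above the median of all distal regions in both replicates.

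**Figure D5:**
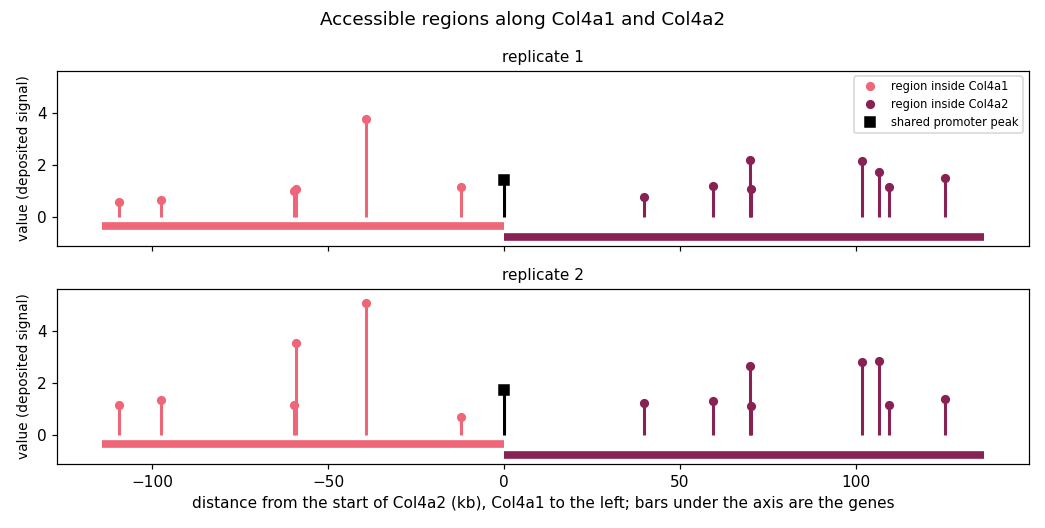
Accessible regions shared by the replicates inside Col4a1 (left) and Col4a2 (right), placed by their distance in kb from the start of Col4a2 (x axis), with the deposited signal on the y axis for replicate 1 (top) and replicate 2 (bottom). The square is the shared promoter peak (1.40 and 1.71), and the tallest line is the Col4a1 intron region (3.75 and 5.06).

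Col15a1 and Col18a1 had open distal sites beside promoters without a main-list peak. Col15a1 had 9 distal regions, all inside the gene, with 0.567 to 1.97 in replicate 1 and 1.01 to 3.05 in replicate 2. Its gene body held 8.57 regions per 100 kb, the highest density of the collagen genes. Col18a1 had 6 regions, with 0.542 to 2.30 in replicate 1 and 0.838 to 3.83 in replicate 2. Its strongest by mean value had 1.94 in replicate 1 and 3.83 in replicate 2 and is the intron region with the printed repeat. Col4a3 had 3 distal regions and Col4a4 had 1.

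Among the neuronal collagens, Col23a1 had 8 distal regions, all in its introns, with 0.403 to 2.03 in replicate 1 and 0.490 to 4.48 in replicate 2. The strongest, printed above, had 2.03 in replicate 1 and 4.48 in replicate 2. Col25a1 had 6 regions of 0.457 to 1.63 in replicate 1 and 0.606 to 2.01 in replicate 2, and Col19a1 had 5, of 0.413 to 0.666 and 0.606 to 0.856. Col13a1 and Col17a1 had 2 each. The 3 longest of these genes also held 6 regions more than 100 kb from any coding start, which the distal count leaves out. Of these, 3 were in Col25a1, 2 in Col23a1 and 1 in Col19a1.

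The fibrillar collagens varied among themselves in distal density. It was above the 2.36 per 100 kb of all genes in 4 of 11, at 5.87 in Col5a3, 4.35 in Col27a1, 3.30 in Col1a1 and 2.99 in Col5a1. The other 7 were below it, and the long genes Col11a1 (0.607), Col5a2 (0.872) and Col24a1 (1.28) were among them. Col5a1 had the most, 7, with 0.517 to 0.805 in replicate 1 and 0.624 to 1.83 in replicate 2. Col27a1 had 6, all in introns, and its strongest had 4.10 in replicate 1 and 3.88 in replicate 2, the highest value of replicate 1 among the 163. Another Col27a1 intron region had 1.23 in replicate 1 and 4.29 in replicate 2. Col24a1 had 4 regions, Col1a1 had 3, and Col1a2, Col3a1, Col5a2, Col5a3 and Col11a1 had 2 each. Col2a1 had 1 and Col11a2 had none. The small Col1a1 gene held 1 body region of 0.582 in replicate 1 and 0.633 in replicate 2, which comes to 5.95 per 100 kb and rests on that single region.

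Col22a1, a collagen of the muscle-tendon junction, had 12 distal regions, the most of any member, although no main-list peak lay at its promoter. Their values were 0.378 to 1.54 in replicate 1 and 0.401 to 2.54 in replicate 2. Col6a3 had 10, of which 6 lay downstream of the gene, with 0.408 to 1.68 in replicate 1 and 0.410 to 2.10 in replicate 2. Col6a4 had 8, with 0.542 to 1.34 in replicate 1 and 0.811 to 2.80 in replicate 2, and a body density of 5.59 per 100 kb. Col6a1, Col6a2 and Col6a5 had 4 each. Col6a6 had no distal region of its own, yet its body held 6 regions whose nearest coding start was that of Pik3r4.

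Col16a1 had 3 distal regions, and its strongest, in an intron at chr4:130087421-130087640, had 1.45 in replicate 1 and 5.88 in replicate 2. That was the highest value of replicate 2 among the 163 and a log2 difference (replicate 1 minus replicate 2) of -2.02, against a median of -0.43 over the collagen distal regions. Col9a1 and Col14a1 had 6 regions each and Col12a1 had 5. Col9a2 had 1, of 0.512 in replicate 1 and 1.22 in replicate 2, and Col20a1 had 1. Col9a3, Col7a1 and Col10a1 had none. Col8a1 had 3, Col8a2 had 1, Col28a1 had 3 and Col26a1 had 4. The strongest region of Col26a1 had 1.45 in replicate 1 and 3.93 in replicate 2.

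The genes whose products build, bind and cut collagen were compared with the collagens themselves. Of the enzymes and chaperones that fold and cross-link collagen chains, 22 of 31 had an open promoter (71.0%), against 59.1% of all genes. P4hb, a subunit of prolyl 4-hydroxylase and a general disulfide isomerase, had 7.63 in replicate 1 and 8.01 in replicate 2. P4ha1, its catalytic partner, had 5.41 and 7.69, and Ppib, a prolyl isomerase of the same compartment, had 5.14 and 6.42. These 3 were the strongest of the list, and each exceeded every collagen promoter in both replicates. The 22 open promoters of the list had a median of 1.28 in replicate 1 and 2.47 in replicate 2. Over all genes with an open promoter the medians were 2.24 and 3.28. The lowest values of the list, 0.338 in replicate 1 and 0.508 in replicate 2, were below the lowest collagen values, 0.403 and 0.606. No promoter peak was found in the main list in either replicate at 7 of the 31. They were Lox, Loxl1, Loxl2 and Loxl4, which cross-link collagen outside the cell, Pcolce, an enhancer of procollagen cleavage, Serpinh1 and Adamts14.

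Of the collagen receptors, 6 of 10 had an open promoter (60.0%), near the 59.1% of all genes. Itgb1, the shared chain of the collagen-binding integrins, had 2.22 in replicate 1 and 2.91 in replicate 2, and the receptor kinase Ddr1 had 1.67 and 2.02. Adgrg1, a receptor of type III collagen in the developing brain, had 1.01 and 1.14. Ddr2 and the platelet receptor Gp6 had no promoter peak.

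Of the basement membrane partners, 6 of 17 had an open promoter (35.3%), against 33.3% of the collagen genes and 59.1% of all genes. Without replicate 1 it was 10 of 17, and in the longer list it was 13 of 17 (76.5%), against 57.1% of the collagen genes and 63.6% of all genes. The laminin chain Lamc1 had 1.22 in replicate 1 and 1.42 in replicate 2. Pxdn, which cross-links type IV collagen, had 1.06 and 1.50, and the proteoglycan Agrn had 0.944 and 1.52. Lamc3, Lamb2 and Lama2, 3 further laminin chains, were among those with no promoter peak. Of the collagen-cutting proteases, Ctsk (0.825 in replicate 1 and 0.918 in replicate 2) and Mmp14 (0.567 and 0.535) had one, while Mmp2, Mmp8, Mmp9 and Mmp13 had none. The share for these proteases was 33.3%, against 59.1% of all genes.

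Markers of the cell types that could be in the tissue were counted in the same way. The promoter was open at 4 of 7 neuronal markers (57.1%) and 3 of 5 astrocyte markers (60.0%), both near the 59.1% of all genes. It was open at 1 of 3 oligodendrocyte markers, 2 of 8 endothelial markers, 2 of 7 mural markers and 1 of 8 fibroblast and meningeal markers, and at 0 of 4 hepatocyte markers. Counted in the longer list, it was open at 7 of 7 neuronal markers, against 63.6% of all genes. There it was open at 4 of 5 astrocyte, 2 of 3 oligodendrocyte and 2 of 8 endothelial markers. It was also open there at 3 of 7 mural, 2 of 8 fibroblast and meningeal and 0 of 4 hepatocyte markers. Among the neuronal markers Syt1, the highest, had 3.77 in replicate 1 and 3.25 in replicate 2. In the main list Gad1 and Slc17a7 had a peak in replicate 1 alone and Gad2 had none. All 3 had longer-list peaks in both replicates. Among the endothelial markers Slc2a1 had 1.81 in replicate 1 and 2.35 in replicate 2 and Kdr had 0.422 and 0.865, whereas Cldn5, Cdh5, Pecam1, Flt1, Tek and Slco1a4 had no promoter peak in the main list. Of the fibroblast and meningeal markers, Dcn had a peak of 0.232 in replicate 2 alone, and Lum, Dpt, Ogn, Igf2, Slc6a13 and Slc47a1 had none. The one fibroblast marker with a peak, Pdgfra, is also made by oligodendrocyte precursors. The part of cell type makeup in the collagen values was not tested.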

How the data were processed

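DNase-seq libraries of 2 replicates were used as deposited, with mm10 coordinates per the labels. The authors deposited a signal per peak. Its normalization, the aligner, the peak caller and the footprint caller were not given in the sources used here. They also deposited intervals with an FDR (a p-value corrected for multiple testing), listed only below 0.05, and footprints, all at an FDR of 0.01. Each library has 2 peak lists, of which the shorter was the main one.

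Start sites came from GENCODE M21 and sequence from GRCm38.p6 and the RefSeq promoter table of that assembly. Overlaps, distances and densities were computed with Python 3.11.15, numpy 2.4.6, pandas 2.3.3, pysam 0.24.0 and samtools 1.23.1, and checked on simulated intervals against direct enumeration. No test was run, because there is 1 group. Values of genes are those of the strongest promoter peak. Values are whole steps within a tolerance of 0.05 steps, and the depth inferred from them limits weak peaks, such as the 81 and 68 steps of Col8a1. The DNA nearest to a gene leaves out the 500 bp around start sites.

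The members, classes, lists and 10 motif strings were chosen with earlier results of these data known. All members are accounted for, and single values are given by rule. They cover members with an open promoter, the 8 with the most distal regions, the 5 with the highest gene body density and the 3 with the largest replicate difference in each direction. Of the partner lists they cover the 3 strongest genes and up to 3 without a peak. Other genes and regions named were chosen after their values were seen. The alternatives varied the peak list, window, strength, overlap, distance, start sites and replicates.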

Additional observations from a re-analysis of the deposited data

How the results depend on the processing

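Of 100 alternatives run on the counts and on the median promoter value, 73 stayed within 1.5 times the count or within the replicate spread, and 27 did not. The count of collagen genes with an open promoter, 14, was 24 in the longer list, 9 with the stronger 50% of peaks, 9 with start sites of protein-coding transcripts only and, chosen after seeing the data, 8 at the 5′ end. As a share it was below that of all genes under each of these. With 1 replicate left out it was 15 to 19. Fibrillar genes went to 8 in the longer list, 1 at the 5′ end and 3 to 6 with a replicate left out (6 without replicate 2). Basement membrane genes went to 5 in the longer list and neuronal genes to 1 at the 5′ end. The longer list thus put the fibrillar genes at 8 of 11 (72.7%), the basement membrane genes at 5 of 6 (83.3%) and the neuronal genes at 4 of 5 (80.0%). Each of these shares was above the 63.6% of all genes in that list. The order of these classes, and the place of the fibrillar and basement membrane genes against all genes, thus depended on the list. The stronger 50% of peaks gave 3 receptors and 0 proteases, a window of 100 bp gave 1 protease, and basement membrane partners numbered 13 in the longer list and 7 to 10 with a replicate left out (10 without replicate 1). Distal regions numbered 258 in the longer list and 75 with the stronger 50%, the gene body regions 208 and 64, the fibrillar distal regions 52 and 8, and the neuronal ones 44 and 11, or 14 within 50 kb. With a replicate left out, fibrillar distal regions numbered 36 to 51 and neuronal ones 33 to 35. The median promoter value, 1.24 over both replicates, was 2.03 as a sum of all promoter peaks and 0.769 in the longer list. The causes of these shifts were not tested. Both replicates come from 1 group, so nothing here separates technical spread from spread between mice. No paired analysis was possible because there is no second group.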
